A study of Mus musculus with 8 samples.

Results

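The IL-6 family comprises cytokines that signal through a shared receptor chain, and 10 of its genes were followed in primary mouse hepatic stellate cells in which PAK4 had been silenced. The 10 genes were chosen by symbol: the ligands Il6, Il11, Lif and Osm, the receptor chains Osmr, Lifr, Il6ra and Il6st, the transcription factor Stat3 and the feedback inhibitor Socs3. They were 10 of 45777 genes in the authors' table, and all 10 passed the filter on low counts that left 17975 genes for testing. Polyadenylated RNA was sequenced from 4 siPAK4 and 4 siControl libraries. Both groups were stellate cells of wild-type male C57BL/6 mice that differed in the transfected siRNA, one against PAK4 and one a control, and all 8 libraries are labelled as batch 1. The labels give neither the age of the animals nor the time after transfection, and do not say how many siRNA sequences were used or whether replicates came from separate animals, so the spread behind the p-values is that of these libraries and may be technical.

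Each of these ligands binds a receptor complex that contains gp130, the product of Il6st. IL-6 and IL-11 first bind their own alpha chains. LIF uses the product of Lifr, and oncostatin M that of Osmr, each together with gp130. The complex activates Janus kinases, which phosphorylate STAT3; STAT3 then induces its own inhibitor, Socs3, whose product binds gp130 and the kinases and ends the signal. In liver the family is best known for the hepatocyte acute phase response and for its actions on stellate cells, in which IL-11 and oncostatin M have been linked to fibrosis.

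Totals ranged from 55728583 to 59205049 reads in siPAK4 libraries and from 57297561 to 61535063 in siControl libraries. Pak4 averaged 6.32 ± 1.13 CPM (read counts scaled to a common library size, by edgeR's TMM factors) in siPAK4 and 17.2 ± 1.14 CPM in siControl (SD, n = 4 each; log2 fold change −1.44). An exon of Pak4 overlaps one of Samd4b on the same strand. Samd4b averaged 25.2 ± 5.62 CPM in siPAK4 and 26.5 ± 4.15 CPM in siControl (log2 fold change −0.08, edgeR adjusted p = 0.78). In a principal component analysis siPAK4 replicate 3 stood apart on the second component, which held 13.4% of the variance. Of 10 stellate cell markers 9 were tested, at an edgeR adjusted p below 0.05: Acta2 (log2 fold change −1.63), Col1a1 (−1.42), Lum (−1.03), Pdgfrb (−0.85) and Des (−0.54) were lower, Hgf (0.38) was higher, and Dcn, Reln and Pdgfra did not pass. The retinol-storage gene Lrat averaged 0.216 CPM in siPAK4 and 0.0269 CPM in siControl and was not tested. The 10 markers summed to 776 to 951 CPM in siPAK4 and 954 to 1170 CPM in siControl, without overlap. Markers of macrophages and endothelial cells were more abundant. The 12 macrophage markers summed to 5100 to 8260 CPM in siPAK4 and 9140 to 10600 CPM in siControl. Most of that sum was 1 gene, Lyz2, which averaged 4850 CPM in siPAK4 and 7810 CPM in siControl. The 10 endothelial markers summed to 3090 to 4550 CPM in siPAK4 and 5310 to 5410 CPM in siControl. Per transcript length, in the deposited TPM values, the stellate sum of 664 to 859 TPM in siPAK4 and 708 to 854 TPM in siControl overlapped between the groups. It lay below the macrophage sum (10000 to 14500 TPM in siPAK4 and 17200 to 19800 TPM in siControl) and the endothelial sum (1810 to 2900 TPM in siPAK4 and 3340 to 3500 TPM in siControl). The part of these marker differences in the results below was not tested. In such bulk libraries fewer cells of a type and less RNA per cell cannot be told apart, and no value below can be assigned to 1 cell type.

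With PAK4 silenced, 6 of the 10 family genes were higher: the ligands Il6 and Osm, the receptor chains Lifr and Il6st, Stat3 and Socs3. None was lower by edgeR's quasi-likelihood test with p-values adjusted over all tested genes by the Benjamini-Hochberg method, at an adjusted p below 0.05, and Il11, Lif, Osmr and Il6ra did not pass. At an unadjusted p below 0.05, 7 genes were higher and 1 lower, and DESeq2 called 6 higher and 1 lower, the last being Il6ra. Among all 17975 tested genes 12.4% were higher and 14.5% lower by the same rule. The 6 genes that rose were also the 6 whose siPAK4 and siControl libraries did not overlap in CPM, against 28.8% of all tested genes. None of the 10 changed by 2-fold or more. Of all tested genes 4.62% both passed at an adjusted p below 0.05 and changed by 2-fold or more. The median log2 fold change of the 10 was 0.26, beside 0.005 over all tested genes. The 10 genes were chosen with earlier results of these data known, so their difference from all tested genes is no independent evidence. The count of higher genes was 5 without siPAK4 replicate 4 or without siControl replicate 2, when Il6st no longer passed, and 7 when libraries were scaled by their totals alone, when Lif also passed.

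**Figure D1:**
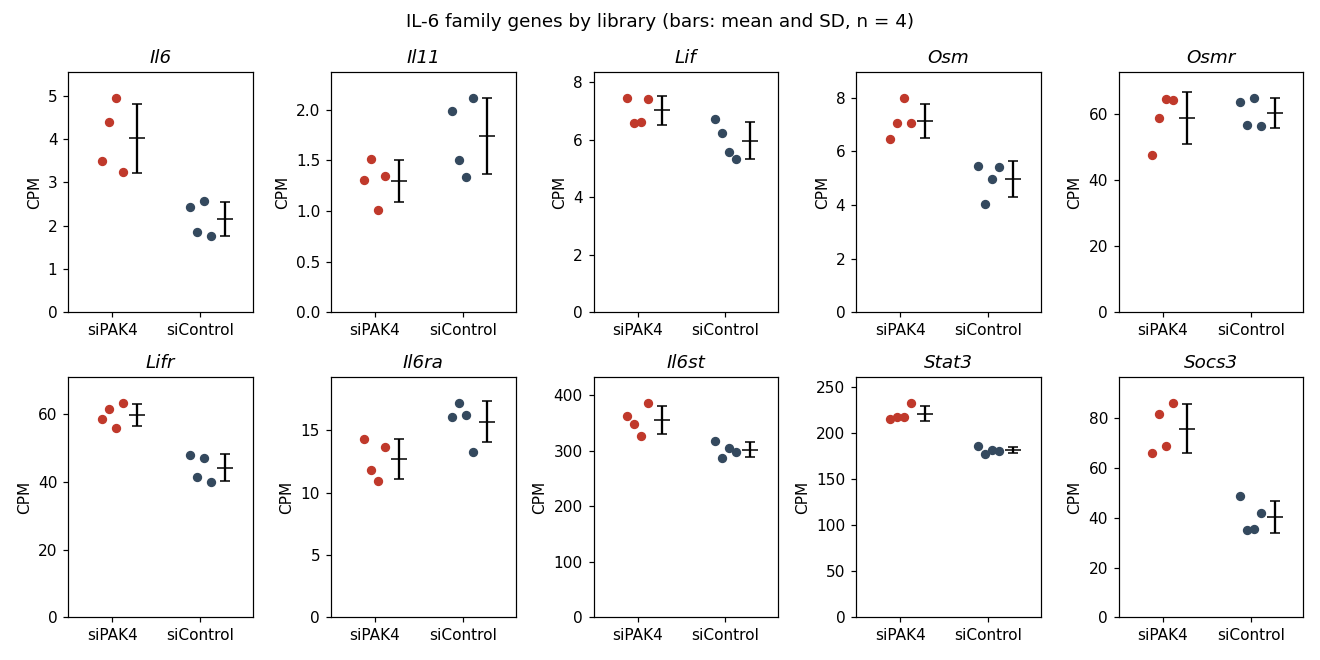
Each panel plots 1 gene in CPM on an axis from 0, with 1 point per library, siPAK4 on the left and siControl on the right; bars give the mean and SD of 4 libraries. For Il6, Osm, Lifr, Il6st, Stat3 and Socs3 every siPAK4 library lies above every siControl library, whereas the groups overlap for Il11, Lif, Osmr and Il6ra.

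Among the ligands Il6 and Osm rose. Il6, the founding cytokine of the family (NCBI gene 16193, mm10 chromosome 5, 30013114 to 30019975), had 3.49, 4.39, 4.96 and 3.25 CPM in siPAK4 replicates 1 to 4, against 2.42, 1.86, 2.56 and 1.77 CPM in siControl replicates 1 to 4. The lowest siPAK4 library, replicate 4, stood 0.691 CPM above the highest siControl library, replicate 3. Il6 was thus 1.87-fold higher (log2 fold change 0.90, SE 0.176, adjusted p = 0.0029). This call held in all 17 alternatives, with log2 fold changes from 0.78 to 1.00. These levels rest on 191 to 298 reads per siPAK4 library and 100 to 151 reads per siControl library, a small number in both groups. The 5 genes with the most similar pattern among 11361 with a mean of at least 5 CPM were Zfp131, Gnl3, Brd9, Prkaa2 and Birc2, with Pearson's r of log2 CPM from 0.986 to 0.994 over the 8 libraries. That likeness includes the difference between the groups that all of them share, and is given as a description.

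Osm encodes oncostatin M, which in other settings is made chiefly by myeloid cells and T cells (NCBI gene 18413, chromosome 11, 4236785 to 4241026). It had 6.45, 7.06, 8.0 and 7.05 CPM in siPAK4 replicates 1 to 4, against 5.44, 4.04, 4.97 and 5.43 CPM in siControl replicates 1 to 4. The siControl libraries lay together near 5 CPM except for replicate 2, the lowest, and the siPAK4 libraries all lay above them. Osm was 1.44-fold higher (log2 fold change 0.52, SE 0.118, adjusted p = 0.0068; 0.43 to 0.61 over the 17 alternatives, with the call kept in each). In the same libraries 8 of the 11 tested macrophage markers fell and none rose, where 14.5% of all tested genes were lower. The median log2 fold change of the 11 was −1.95, with the largest falls for Vsig4 (−2.92) and Cd5l (−2.75). Csf1r fell by less (−0.31), and Adgre1 (0.14), Cd68 (−0.04) and Timd4 (−2.02) did not pass. The neutrophil markers Ly6g and Elane had no read in any library. The 7 neutrophil markers summed to 10.8 to 14.1 CPM in siPAK4 and 6.86 to 11.4 CPM in siControl. Nearly all of this was S100a8, the only 1 tested, with 11.8 CPM in siPAK4 and 8.66 CPM in siControl. S100a8 did not pass (edgeR adjusted p = 0.065). The 7 lymphocyte markers summed to 1.03 to 1.33 CPM in siPAK4 and 0.795 to 1.07 CPM in siControl. The part of neutrophils and lymphocytes in the Osm result was not tested.

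Lif encodes leukemia inhibitory factor and lies beside Osm (NCBI gene 16878, chromosome 11, 4257568 to 4272514). It had 7.47, 6.58, 6.62 and 7.43 CPM in siPAK4 replicates 1 to 4, against 6.74, 6.24, 5.57 and 5.32 CPM in siControl replicates 1 to 4. Only siControl replicate 1 reached into the siPAK4 range, above siPAK4 replicates 2 and 3. The log2 fold change of 0.24 (SE 0.104) did not pass (adjusted p = 0.12), but did with library totals alone (0.32, adjusted p = 0.033).

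Il11, the cytokine linked to fibroblast activation (NCBI gene 16156, chromosome 7, 4772373 to 4782907), was the one ligand with a negative difference. It had 1.31, 1.51, 1.01 and 1.35 CPM in siPAK4 replicates 1 to 4, against 1.99, 1.5, 1.34 and 2.12 CPM in siControl replicates 1 to 4. The groups overlapped: siControl replicates 2 and 3 lay among the siPAK4 libraries and siControl replicates 1 and 4 above them. Its log2 fold change of −0.42 (SE 0.197) did not pass (adjusted p = 0.14), and was negative in all 17 alternatives, from −0.53 to −0.24, without passing in any. These values rest on 61 to 89 reads in siPAK4 libraries and 79 to 120 reads in siControl libraries.

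Promoter letters of Il6, which rose, and of Il11, the ligand with a negative difference that did not pass, are shown side by side. RefSeq promoter windows of GRCm38.p6, the build also called mm10, run from 250 bases before to 50 bases after an annotated start, and were available for 9 of the 10 genes (11 windows), without Osm. They were searched on both strands for GGANTTTCC (a core of the NF-kB site), TGANTCA (a loose form of the AP-1 site), TTCNNNGAA (STAT) and TGACGTCA (CRE). The 250 bases before the start are printed 5′ to 3′ in the gene's direction, with the matches in capitals.
Il6, chr5:30012864-30013113, plus strand: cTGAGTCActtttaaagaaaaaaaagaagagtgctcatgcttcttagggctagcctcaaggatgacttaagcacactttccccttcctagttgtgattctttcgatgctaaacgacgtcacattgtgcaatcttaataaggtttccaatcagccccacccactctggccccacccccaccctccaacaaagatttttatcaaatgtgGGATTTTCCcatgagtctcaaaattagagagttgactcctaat
Il11, chr7:4778142-4778391, minus strand: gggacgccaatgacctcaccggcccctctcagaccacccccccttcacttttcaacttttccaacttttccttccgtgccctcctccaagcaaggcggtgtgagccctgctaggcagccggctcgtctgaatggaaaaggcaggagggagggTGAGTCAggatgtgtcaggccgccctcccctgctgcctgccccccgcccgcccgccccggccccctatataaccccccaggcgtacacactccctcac
The Il6 window holds GGATTTTCC from −43 to −35 and TGAGTCA from −249 to −243, counted from the start site. The NF-kB letters are found in 1.25% of 32851 RefSeq promoter windows, and in no other member's window. The Il11 window holds TGAGTCA from −98 to −92, and a window at another annotated Il11 start holds none of these letters. TGANTCA also occurs in the Lif window, as TGACTCA, and in the Osmr window, as TGATTCA from 4 to 10 after the start. This loose pattern occurs in 7.81% of all windows. The CRE letters were in no member's window and in 1.79% of all windows. These matches describe letters only. The loose pattern TGANTCA, found for Il6, Lif, Il11 and Osmr, does not go with 1 test result. Il6 passed as higher, whereas Lif, Il11 and Osmr did not pass.

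Of the receptor chains Il6st and Lifr rose, whereas Osmr and Il6ra did not pass. Il6st encodes gp130, the chain shared by the receptors of these ligands (NCBI gene 16195, chromosome 13, 112464070 to 112506860), and had 362, 348, 326 and 386 CPM in siPAK4 replicates 1 to 4, against 318, 286, 305 and 297 CPM in siControl replicates 1 to 4. The groups were separated by 7.89 CPM, between siPAK4 replicate 3 and siControl replicate 1. The rise was small (1.18-fold, log2 fold change 0.24, SE 0.063, adjusted p = 0.016) and was not called without siPAK4 replicate 4 (adjusted p = 0.0504) or without siControl replicate 2 (adjusted p = 0.0573).

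Lifr encodes the LIF receptor chain (NCBI gene 16880, chromosome 15, 7090610 to 7197489), and showed the largest rise among the 4 receptor genes. It had 58.3, 61.4, 55.7 and 63.2 CPM in siPAK4 replicates 1 to 4, against 47.9, 41.4, 46.9 and 39.9 CPM in siControl replicates 1 to 4. The groups lay 7.79 CPM apart. Lifr was 1.35-fold higher (log2 fold change 0.44, SE 0.072, adjusted p = 0.00099), and passed in all 17 alternatives.

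Osmr, the gene of the oncostatin M receptor beta chain (NCBI gene 18414, chromosome 15, 6813568 to 6874968), had 47.6, 59.0, 64.6 and 64.4 CPM in siPAK4 replicates 1 to 4, against 63.8, 56.7, 65.1 and 56.6 CPM in siControl replicates 1 to 4. Apart from siPAK4 replicate 1, which was the lowest of all 8 libraries, the groups covered the same range. The log2 fold change was −0.04 (SE 0.094, adjusted p = 0.80), and it was 0.05 without siPAK4 replicate 1 or with library totals alone, again without passing.

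Il6ra encodes the alpha chain that gives a cell its own response to IL-6 (NCBI gene 16194, chromosome 3, 89869324 to 89913196). It had 14.3, 11.8, 10.9 and 13.7 CPM in siPAK4 replicates 1 to 4, against 16.1, 17.2, 16.2 and 13.3 CPM in siControl replicates 1 to 4. The siControl libraries lay above all siPAK4 libraries except for replicate 4, which lay within them. Its log2 fold change of −0.31 (SE 0.107) missed the threshold (adjusted p = 0.053). It passed as lower without siControl replicate 4 (−0.38, adjusted p = 0.0235), without siPAK4 replicate 1 (−0.37, adjusted p = 0.033), with DESeq2 (adjusted p = 0.0294) and with a minimum mean of 1 CPM (adjusted p = 0.0499). The antisense gene Gm42809 overlaps an exon of Il6ra in GENCODE M21, and the sources used here do not say whether counting used strand, so the 2 transcripts may share reads. The 9 hepatocyte markers, from the cell type known for high Il6ra, summed to 8.5 to 22.1 CPM in siPAK4 and 2.36 to 4.7 CPM in siControl, and the macrophage marker sums are given above; their part in the Il6ra values was not tested.

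**Figure D2:**
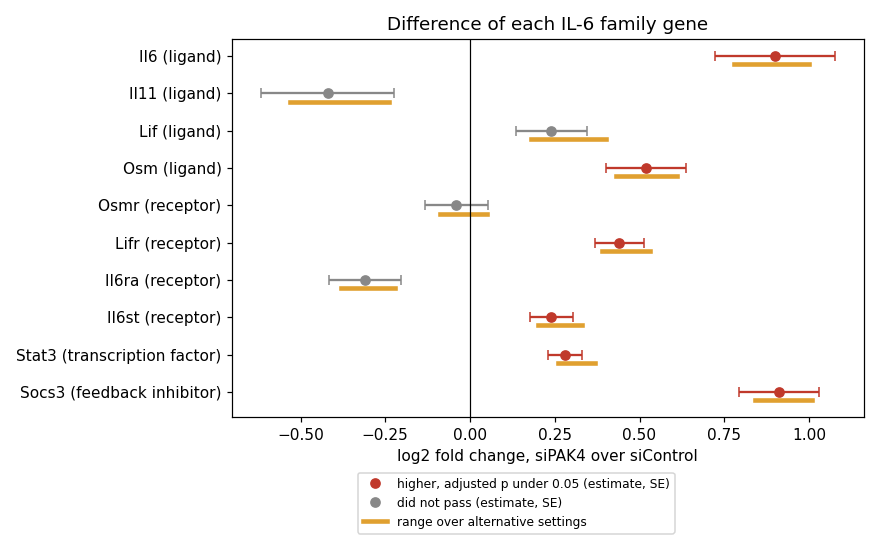
Points give the log2 fold change of siPAK4 over siControl for each gene with its SE, red where the adjusted p was under 0.05 and grey where it was not, and the orange lines give the range over 17 alternative settings. Il6 (0.90) and Socs3 (0.91) lie farthest to the right, Il11 (−0.42) and Il6ra (−0.31) lie left of 0, and only the range of Osmr spans 0.

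Downstream of the receptors Stat3 and Socs3 both rose. Stat3, the transcription factor that carries the signal to the nucleus (NCBI gene 20848, chromosome 11, 100886806 to 100939594), had 216, 218, 218 and 233 CPM in siPAK4 replicates 1 to 4, against 186, 178, 182 and 181 CPM in siControl replicates 1 to 4. The groups were separated by 29.9 CPM and varied little within themselves, apart from siPAK4 replicate 4, which lay above the other siPAK4 libraries. Stat3 was 1.22-fold higher (log2 fold change 0.28, SE 0.049, adjusted p = 0.0014), and passed in all 17 alternatives. An exon of Stat3 overlaps one of Stat5a on the opposite strand, and Stat5a had 16.8 to 19.4 CPM in siPAK4 and 16.8 to 18.4 CPM in siControl.

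Socs3, the feedback inhibitor of gp130 signalling (NCBI gene 12702, chromosome 11, 117966079 to 117970336), had the smallest p-value of the 10 genes. It had 66.1, 81.8, 68.7 and 86.1 CPM in siPAK4 replicates 1 to 4, against 48.9, 34.9, 35.6 and 41.9 CPM in siControl replicates 1 to 4. Every siPAK4 library lay at least 17.1 CPM above the highest siControl library, replicate 1. Socs3 was 1.88-fold higher (log2 fold change 0.91, SE 0.118, adjusted p = 0.00021; 0.84 to 1.01 over the 17 alternatives, with the call kept in each). Its promoter is shown because Socs3 is a classical STAT3 target, with the STAT match in capitals.
Socs3, chr11:117969367-117969616, minus strand: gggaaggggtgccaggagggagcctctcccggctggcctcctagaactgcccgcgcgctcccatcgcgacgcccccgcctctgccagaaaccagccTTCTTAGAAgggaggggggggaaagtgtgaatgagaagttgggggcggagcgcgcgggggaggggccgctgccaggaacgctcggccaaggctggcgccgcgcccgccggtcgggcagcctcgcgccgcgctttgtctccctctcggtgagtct
TTCTTAGAA lies from −154 to −146 before the annotated start. It was the only STAT match in the 11 windows, and 8.30% of all windows hold one. No window of Stat3, Il6st, Lifr or Il6ra held any of the 4 motifs.

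Levels per transcript length came from the deposited TPM values (divided by transcript length and by the library's sum). They placed Il6st, Stat3, Socs3, Osmr and Lifr above all 4 ligands in every library. In siPAK4 the order was Il6st (144 ± 14.6 TPM), Stat3 (108 ± 6.36), Socs3 (60.8 ± 8.71), Osmr (26.5 ± 2.65), Lifr (14.9 ± 1.34), Il6ra (8.28 ± 1.34), Osm (8.18 ± 0.431), Il6 (7.72 ± 1.41), Lif (3.72 ± 0.383) and Il11 (1.43 ± 0.35 TPM). In siControl the order was the same, from Il6st (118 ± 7.34 TPM), Stat3 (86.3 ± 3.23) and Socs3 (31.4 ± 5.12) through Osmr (26.7 ± 2.51), Lifr (10.6 ± 1.13), Il6ra (9.95 ± 1.24), Osm (5.55 ± 0.739) and Il6 (4.03 ± 0.796) to Lif (2.81 ± 0.368) and Il11 (1.87 ± 0.397 TPM). Neighbours whose libraries overlapped were Il6ra with Osm and Osm with Il6 in siPAK4, and Socs3 with Osmr, Lifr with Il6ra and Osm with Il6 in siControl. The 4 ligands together summed to 19.1 to 23.0 TPM in siPAK4 and 12.7 to 16.1 TPM in siControl, and the 4 receptor genes to 169 to 203 TPM in siPAK4 and 154 to 179 TPM in siControl. The ligand sums did not overlap between the groups, and the receptor sums did. On this scale the libraries of Il6st overlapped, with 122 to 154 TPM in siPAK4 and 112 to 128 TPM in siControl, and those of Lif did not, with 3.25 to 4.18 TPM in siPAK4 and 2.3 to 3.08 TPM in siControl.

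**Figure D3:**
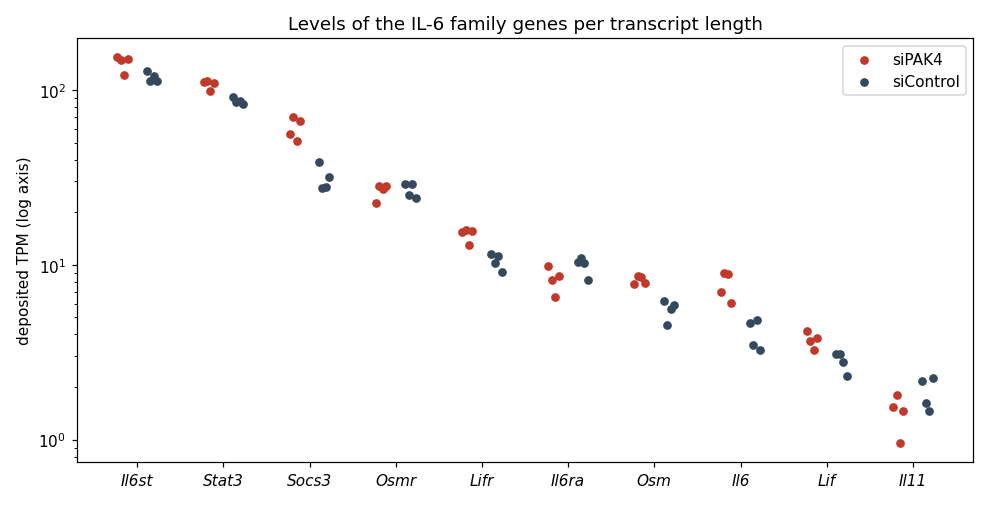
Deposited TPM of the 10 genes on a log axis, with 1 point per library, siPAK4 left of siControl, and genes ordered by their siControl mean. Il6st lies highest in both groups, at 122 to 154 TPM in siPAK4 and 112 to 128 TPM in siControl, and Il11 lowest, at 0.955 to 1.79 TPM in siPAK4 and 1.46 to 2.25 TPM in siControl.

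Beyond the 10 genes, 49 others of the pathway were counted in 6 lists. Of the 47 tested ones 18 were higher, 7 lower and 22 did not pass. Among all tested genes 26.9% passed in either direction, 12.4% as higher and 14.5% as lower. No other ligand passed. Among the 7, Clcf1, a ligand of the CNTF receptor, had 17.1 ± 1.4 CPM in siPAK4 and 16.4 ± 0.689 CPM in siControl (adjusted p = 0.59). Ebi3, which encodes a subunit of IL-27, had 8.73 ± 0.397 CPM in siPAK4 and 8.86 ± 1.61 CPM in siControl (adjusted p = 0.93). Il27 (log2 fold change 1.21, adjusted p = 0.17), Cntf (−0.67, adjusted p = 0.22) and Ctf1 (−0.84, adjusted p = 0.093) had few reads, with 14 to 27 for Il27 in siPAK4 and 0 to 19 in siControl. The difference of Il27 was 0.79 without siControl replicate 3 and 1.91 without siControl replicate 2, and did not pass in either. Cntf passed as lower without siPAK4 replicate 2 (−1.19, adjusted p = 0.0215). Ctf2 and Il31 had no read in any library, which allows up to 3 reads per library.

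Of 4 other receptor genes none passed by edgeR, at an unadjusted p below 0.05 or by any alternative. Il11ra1, the alpha chain for IL-11, had 42.0 ± 4.19 CPM in siPAK4 and 42.7 ± 3.29 CPM in siControl (adjusted p = 0.86). Il27ra (−0.13), Cntfr (0.37) and Il31ra (−0.10) did not pass either.

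Of 5 kinases and other signalling genes 1 was higher, 1 lower and 3 not past the test. Over all tested genes 12.4% were higher and 14.5% lower. Jak2, a Janus kinase bound to gp130, had 131, 151, 150 and 144 CPM in siPAK4 replicates 1 to 4, against 98.4, 82.2, 93.8 and 87.8 CPM in siControl replicates 1 to 4. Its siPAK4 libraries all lay above its siControl libraries, and it rose (log2 fold change 0.67, SE 0.068, adjusted p = 3.6e-05). Jak1 (0.06, adjusted p = 0.57), Tyk2 (−0.02, adjusted p = 0.86) and the adaptor gene Gab1 (−0.17, adjusted p = 0.19) did not pass. Ptpn11, the gene of the phosphatase SHP2 that binds gp130, fell (−0.20, adjusted p = 0.015). The Ptpn11 call was lost with library totals and on TPM.

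Among 7 other feedback inhibitors 3 were higher, 2 lower and 2 did not pass, beside 12.4% higher and 14.5% lower over all tested genes. Socs1, the inhibitor closest in mechanism to Socs3, had 4.17, 4.90, 4.19 and 5.50 CPM in siPAK4 replicates 1 to 4, against 1.64, 1.30, 1.53 and 1.64 CPM in siControl replicates 1 to 4. No siControl library came near the siPAK4 range, and Socs1 rose (log2 fold change 1.61, SE 0.142, adjusted p = 1.4e-05). Cish (0.47, adjusted p = 0.0056) and the phosphatase gene Ptpn2 (0.35, adjusted p = 0.006) rose. The phosphatase genes Ptpn1 (−0.33, adjusted p = 0.0024) and Ptpn6 (−0.31, adjusted p = 0.044) fell, and Ptpn6, a gene of blood cells, lost its call when any library other than siPAK4 replicate 3 was left out (adjusted p = 0.0682 to 0.127) and with library totals. Pias3 (−0.19) did not pass, nor did Socs2.

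Proteases that release IL-6 receptor from the cell surface moved in opposite directions. Adam17, the stimulated sheddase, rose to 276 ± 10.1 CPM in siPAK4, against 233 ± 10.7 CPM in siControl (0.25 on the log2 scale, adjusted p = 0.0056). Adam10, the constitutive one, fell to 176 ± 16.2 CPM in siPAK4, against 229 ± 21.5 CPM in siControl (−0.38, adjusted p = 0.005), a call lost on TPM with a pseudocount of 1 (adjusted p = 0.0505). The ADAM17 partner genes Rhbdf1 (0.13, adjusted p = 0.33) and Rhbdf2 (0.15, adjusted p = 0.19) did not pass, though Rhbdf2 did without siPAK4 replicate 3 (0.21, adjusted p = 0.015) and with library totals (0.24).

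Of 22 genes known as STAT3 targets 13 rose, 3 fell and 6 did not pass, where 12.4% of all tested genes rose and 14.5% fell. The median log2 fold change of the 22 was 0.34, beside 0.005 over all tested genes. The list was written with earlier results of these data known, so its direction is no independent evidence. Cebpd, a transcription factor of the acute phase response, had 97.3, 99.6, 99.3 and 112 CPM in siPAK4 replicates 1 to 4, against 46.7, 40.2, 36.3 and 49.5 CPM in siControl replicates 1 to 4. Every siPAK4 library was far above every siControl library (log2 fold change 1.24, SE 0.092, adjusted p = 5.9e-06). Its relative Cebpb, known to act on the Il6 gene, rose (0.75, adjusted p = 5.9e-05), as did Steap4, a metalloreductase gene induced by cytokines (1.16, adjusted p = 1.5e-05). Saa3 and Lcn2, which encode secreted acute phase proteins, were higher by 1.44 and 2.77 on the log2 scale. The 3 that fell were Ccnd1, the cyclin D1 gene (−0.87, adjusted p = 1.1e-05), and, named after their values were seen, Birc5, the survivin gene of dividing cells (−0.61, adjusted p = 0.0035), and Timp1, a protease inhibitor gene of activated stellate cells (−0.60, adjusted p = 0.0014). Many of these genes also answer to NF-kB, interferon or the cell cycle, and the part of each was not tested.

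**Figure D4:**
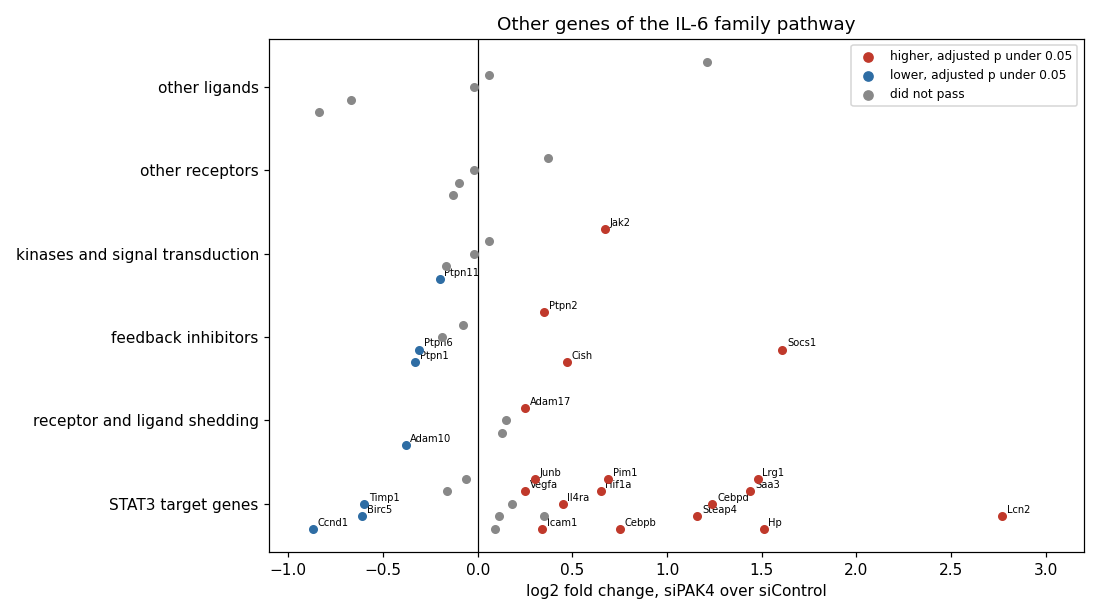
Log2 fold change of siPAK4 over siControl for the 47 tested pathway genes in 6 lists, coloured by the edgeR call; the vertical spread within a list only separates the points. Lcn2 (2.77) and Socs1 (1.61) lie farthest to the right, and Ccnd1 (−0.87) is the lowest of the 7 genes that fell.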

How the data were processed

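Tests ran on the read counts that the authors deposited, which are whole numbers per gene without scaling. FPKM deposited by the authors, which divide by depth and gene length, went unused. The TPM deposited by the authors, with the same sum in every library, gave levels between genes and some alternatives. The submitters' processing notes list StringTie 2.1.3b, HISAT2 2.1.0 and Bowtie2 2.3.4.1, and build mm10; how reads were counted, and whether by strand, is not given in the sources used here. Genes were filtered by filterByExpr of edgeR 4.0.16 (minimum count 10), scaled by TMM and compared by its quasi-likelihood test with robust estimation and Benjamini-Hochberg adjustment; CPM use TMM-scaled library sizes, and SEs derive from the F statistic. Alternatives used RLE or library totals, other filters, DESeq2 1.42.0, limma 3.58.1 on voom or TPM (pseudocount 1 or 0.1), a replicate block, and each library left out. The procedure was also run on simulated counts, whose outcome is not given here and is no support for single calls. No value column was left unmatched, and replicates differed beyond sampling noise (chi-square per degree of freedom 13.7 to 74.4). The members and lists were chosen with earlier results of these data known; named were the members, Pak4, up to 6 genes per list by p-value and untested ones, and the 5 genes most like Il6. Other list genes enter only the counts, and some genes are not reported here.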

Additional observations from a re-analysis of the deposited data

Results flagged for a closer look

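In 3 of 96 groups of 4 libraries examined (48 genes), a single library lay apart from the other three by a gap beyond Dixon's critical value; chance alone gives about 1 such group in 20. Stat3 had 233 CPM in siPAK4 replicate 4, against 216 to 218 CPM in the other siPAK4 libraries. Cebpd had 112 CPM in siPAK4 replicate 4, against 97.3 to 99.6 CPM in the others. Il11ra1 had 48.2 CPM in siPAK4 replicate 3, against 39.2 to 40.5 CPM in the others. Without siPAK4 replicate 4 Stat3 was still called higher (log2 fold change 0.26, edgeR adjusted p = 0.00607).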

How the results depend on the processing

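Across 17 alternatives the members called higher numbered 5 to 7 (5 to 6 with 1 library left out), and Il6, Osm, Lifr, Stat3 and Socs3 were called higher in each. The count of members called lower, 0 in the comparison reported, was 1 with DESeq2 and with a minimum mean of 1 CPM, and 0 to 1 with 1 library left out; the gene was Il6ra. Directions reversed only among genes that did not pass. With library totals alone the log2 fold changes were 0.05 for Osmr, 0.07 for Ebi3, 0.06 for Il11ra1 and 0.07 for Tyk2. On TPM they were 0.03 for Ebi3, 0.01 for Il11ra1 and 0.03 for Tyk2 with either pseudocount. With 1 library left out they ranged from −0.09 to 0.05 for Osmr, −0.13 to 0.07 for Ebi3, −0.10 to 0.01 for Il11ra1, −0.40 to 0.11 for Il31ra and −0.04 to 0 for Tyk2. The cause was not tested. Over all genes library totals gave 3877 higher and 1859 lower calls (67.6% higher, against 46.1%). The replicate numbers showed no clear pairing of the libraries, though 4 libraries per group are too few to exclude it. Deviations from the group means of same-numbered libraries correlated by −0.047 to 0.104. Of the 4 siPAK4 libraries 2 correlated best with their own number. With the replicate number as a block, 6 members were called higher, 0 lower and 24 other pathway genes passed (25 without it). Among the members Il11 had the fewest reads, 61 to 120 per library; how depth limits the calls was not tested.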
